A study of Lathyrus oleraceus with 9 samples.

Results

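The change in gene expression of pea seeds between 8 d and 12 d of ageing was described from 6 of the 9 arrays of the series, the 3 hybridised with RNA of seeds aged for 8 d and the 3 for 12 d. All 5246 probes were members, none was filtered out, and each was measured on all 6 arrays. Seeds of pea (Pisum sativum L., cultivar Alaska Early) were first equilibrated at 60% relative humidity to 12% moisture and then aged in closed bottles at 50°C, while non-aged seeds served as controls. RNA came from 20 pooled whole seeds per replicate, so that embryo axis, cotyledon and seed coat were not separated. On every array, 1 µg of total RNA from aged seeds was hybridised together with non-aged RNA, and replicate 2 of each ageing time had its dyes exchanged. A value is 1 probe's log2 ratio on 1 array, with the aged seeds over the controls, so that 1 is a 2-fold higher and -1 a 2-fold lower signal in aged seeds. The quantity tested was the mean ratio at 12 d minus that at 8 d. It was tested with limma in a fit of all 9 arrays, and a probe was called at a Benjamini-Hochberg adjusted p under 0.05. Whether the same non-aged RNA was used at both times is not given in the sources used here, and a difference between non-aged extracts would enter the contrast. A ratio of bulk RNA cannot tell fewer cells of a type from less RNA per cell.

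Seeds at this moisture do not germinate, and their RNA pool is that stored during maturation, altered by whatever synthesis and breakdown ageing allows. Ageing at high temperature is known to damage proteins, lipids and nucleic acids and to cost viability. The study reports that RNA of these seeds was already partly degraded at its earliest ageing time, and increasingly so later. It also states that only RNA of satisfactory quality was used for the arrays. RNA integrity was not analysed here, and whether its loss contributed to the differences between the times was not tested. Programmed cell death (PCD), an ordered dismantling of the cell, uses cysteine proteases, and Bax inhibitor 1 is a membrane protein of the endoplasmic reticulum (ER) known to restrain it. Proteins that misfold in the ER are bound there by the chaperone BiP and are exported for breakdown with the help of derlins. Legumins and vicilins are the storage proteins of the pea cotyledon, and oleosins coat its oil bodies.

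Between 8 d and 12 d, 972 of the 5246 probes (18.5%) changed, 508 up (9.68%) and 464 down (8.84%). At an unadjusted p under 0.05 there were 1692. For 1768 probes (33.7%) the 3 ratios at 12 d did not overlap the 3 at 8 d. Changes were small for most probes called, with a median size of 0.24 on the log2 scale, and 507 of the 972 moved by less than 0.25. A change of at least 0.5 was seen in 60 probes (1.14%). Over all probes the median change was 0.00, with a range from -1.62 to 1.20.

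Called probes were divided by their ratios at both times, which passed the test against 0 for 3713 probes (70.8%) at 8 d and 3738 (71.3%) at 12 d. This division was cut from the same values as the contrast and is a description without a test. In 456 probes the ratio went on in the direction it had at 8 d, 253 further up and 203 further down. In 380 probes it turned back, 203 from above 0 and 177 from below 0. The other 136 had not differed from 0 at 8 d, of which 78 rose and 58 fell. Among those that turned back, 30 passed from above 0 to below 0 and 23 from below 0 to above 0, with an adjusted p under 0.05 on each side.

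**Figure D1:**
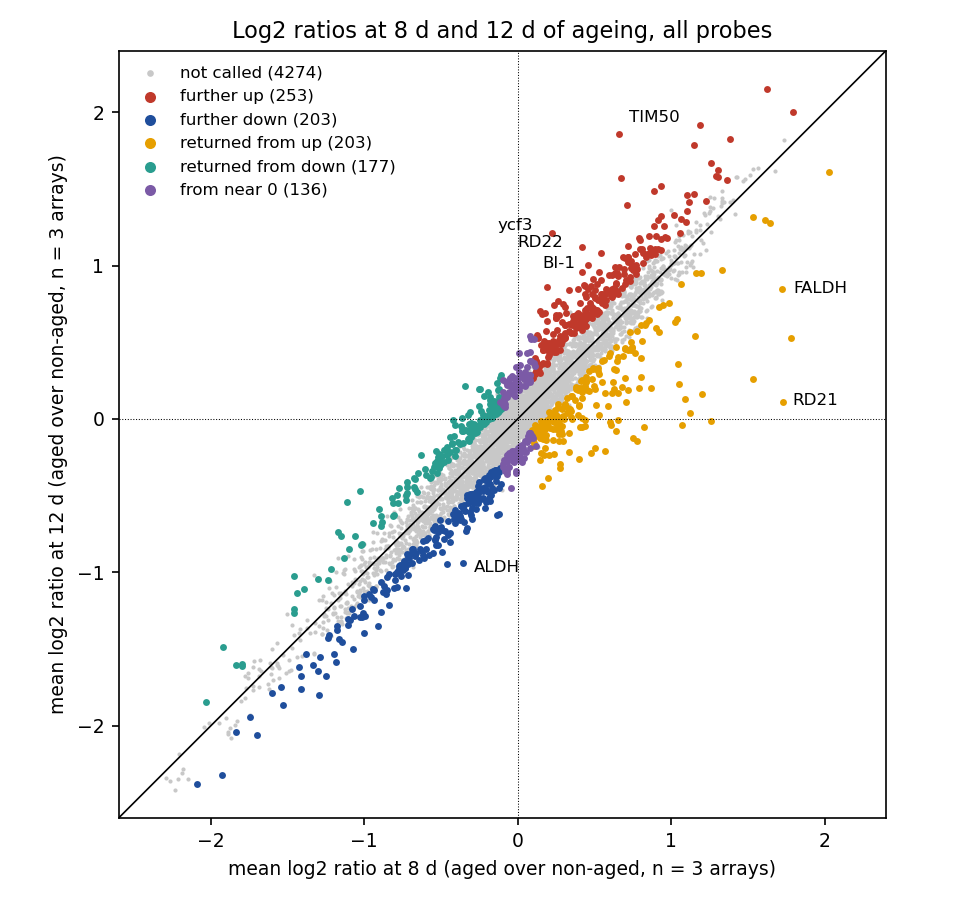
Mean log2 ratio (aged over non-aged, 3 arrays) of each of the 5246 probes at 8 d (horizontal) and 12 d (vertical), where the solid line marks equal ratios and colours the classes of the 972 called probes. Among the 203 orange probes that fell back, several with a ratio above 1 at 8 d lie far below the line, with RD21 at 1.73 at 8 d and 0.11 at 12 d, whereas the 177 green probes that rose from below 0 stay close to it.

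The balance between going on and turning back depended on the spread of the arrays. Ratios at 12 d were wider than at 8 d, with a slope of 1.06 on those of 8 d over all probes. Of the probes that went on or turned back, 54.5% went on. With every array divided by its median absolute deviation this share was 44.6%, and with the slope taken out 39.1%, and then only 118 probes went further down.

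Turning back from above 0 gave the largest changes of all. Of the 10 probes that changed most, 8 had been raised at 8 d and fell. The falls reached -1.62 in this class, and 13 of its probes moved by at least 0.8, against 3 of those further up and 0 of those further down or returned from down. Of the 132 probes with a mean ratio of at least 1 at 8 d, 22 fell, 19 rose, and 9 were under 0.5 at 12 d. Of the 235 with a mean of -1 or less, 22 rose, 38 fell, and 1 was above -0.5 at 12 d. Over all probes, 9.68% rose and 8.84% fell. Both sets were cut on the 8 d mean, which is part of the contrast, so that their counts are a description.

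RD21 and papain are cysteine proteases, and legumain, the vacuolar processing enzyme, cuts after asparagine and is known for caspase-1-like activity in plants. The RD21 probe (PSOLI04472) changed more than any other. Its log2 ratios were 1.64, 1.87 and 1.68 on the 8 d arrays and 0.23, 0.03 and 0.07 on the 12 d arrays. All 8 d arrays were far above all 12 d arrays, where the seeds hardly differed from the controls. The difference was -1.62 (SE 0.08, n = 3 arrays per time, adjusted p = 2.5e-09, limma), a 3.07-fold fall, and at 15 d the ratio was 0.09 ± 0.12 (SD, n = 3). The papain probe (PSOLI04496), by contrast, had 1.10, 1.03 and 1.01 at 8 d and 0.90, 1.00 and 0.91 at 12 d. It stayed near 1, with a difference of -0.11 that did not pass the test (95% interval -0.23 to 0.01, adjusted p = 0.18, limma), although it did with the slope taken out (adjusted p = 0.046). Legumain (PSOLI05207) moved the opposite way from RD21, from -1.24, -1.03 and -1.24 to -0.65, -0.78 and -0.79. It was reduced at both times but less so at 12 d, by 0.43 (SE 0.07, adjusted p = 0.00038, limma). Cathepsin H (PSOLI03855), another cysteine protease, went from a mean of -0.93 to -1.12, with a difference of -0.18 (adjusted p = 0.047) that was lost without any 1 of 5 of the 6 arrays.

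Of the 13 proposed or known PCD regulators in the study's functional table, 3 rose and 1 fell, a share of 30.8%. Their median difference was 0.08. Like the other lists of that table, this one holds probes that the study chose on these arrays, so its counts are no independent evidence. Of all 717 probes in the study's product table, which the study chose for a ratio of about 1 or more in size at 1 or more times, 30.1% changed, against 16.7% of the other 4529, and these shares are not independent of that choice. RD21 was the regulator that fell, and with the slope taken out papain was called down as well. The largest rise was that of an RD22 probe (PSOLI04742), a dehydration-responsive protein with a BURP domain, from 0.31, 0.27 and 0.67 to 1.01, 1.31 and 1.05. Its 12 d arrays were all above its 8 d arrays, and the difference was 0.71 (SE 0.10, adjusted p = 0.00021, limma). The other RD22 probe (PSOLI04811) went from a mean of 0.75 to 0.88, which did not pass the test (adjusted p = 0.12). Bax inhibitor 1 (PSOLI01240) had 0.44, 0.45 and 0.49 at 8 d and 1.03, 1.03 and 0.96 at 12 d. The spread within each time was narrow, and the ratio rose by 0.55 (SE 0.05, adjusted p = 3.4e-06, limma). A hypothetical protein of this list (PSOLI03158) rose by 0.32 (adjusted p = 0.00077). At 15 d the RD22 probe PSOLI04742 was back at 0.49 ± 0.12 and Bax inhibitor 1 was at 0.77 ± 0.04 (SD, n = 3).

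BiP2 and derlins belong to the quality control of the ER. The luminal-binding protein BiP2 (PSOLI03407) had 0.56, 0.81 and 0.68 at 8 d and 1.03, 1.12 and 1.02 at 12 d. It rose by 0.37 (SE 0.06, adjusted p = 0.00089, limma) and was at 1.05 ± 0.03 at 15 d. Neither derlin probe passed the test, and they lay on opposite sides of 0. PSOLI02741 went from a mean of 0.87 to 0.97 (adjusted p = 0.26), and PSOLI00092 from -0.74 to -0.92 (adjusted p = 0.052), with an adjusted p under 0.05 when arrays were centred on their median or when the 15 d arrays were left out of the fit.

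Of 10 mitochondrial genes involved in PCD, 0 rose by limma (1 at an unadjusted p under 0.05) and 2 fell, with a median difference of -0.02. The share called was 20%, close to the 18.5% of all probes. Those that fell were pyruvate dehydrogenase E1 beta (PSOLI00986), which feeds pyruvate into respiration, from a mean of -1.07 to -1.29, and cytochrome c-1 (PSOLI00737), of the respiratory chain, from -1.60 to -1.78. Both calls were lost with equal array spread and with the slope taken out, and without 1 array between 0 and 2 remained. In the hypersensitive response list, 0 of 7 probes changed by limma (1 at an unadjusted p under 0.05), with a median difference of 0.02 and a range from -0.16 to 0.07.

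**Figure D2:**
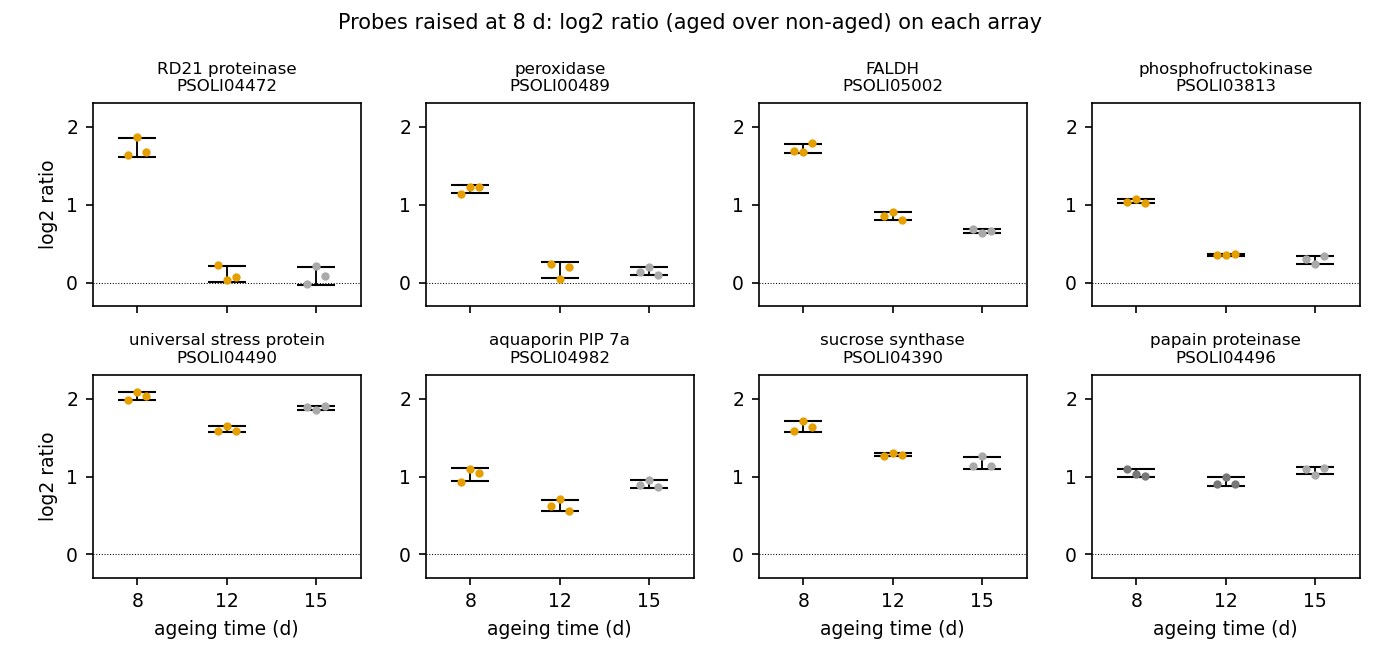
Log2 ratio (aged over non-aged) of 8 probes raised at 8 d on each of the 3 arrays at 8, 12 and 15 d of ageing, with bars for mean ± SD. RD21 and the peroxidase fell to near 0 at 12 d and stayed there at 15 d, the universal stress protein and the aquaporin fell less and were higher again at 15 d, and the papain probe, the only one of the 8 not called, remained near 1.

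Genes of oxidative stress included the largest falls after RD21 among probes whose product is more than a hypothetical protein. In that list of 15 probes, 2 rose and 7 fell (60% called, against 30.1% of the whole product table). The median difference was -0.15, between 4 and 6 fell without 1 array, and 3 fell with the slope taken out. The peroxidase probe (PSOLI00489), of a family that oxidises phenolic compounds with hydrogen peroxide, had 1.14, 1.23 and 1.23 at 8 d and 0.24, 0.05 and 0.20 at 12 d. It lost nearly all of its increase, by -1.04 (SE 0.06, adjusted p = 2.1e-08, limma). Glutathione-dependent formaldehyde dehydrogenase (FALDH), which also reduces S-nitrosoglutathione, had 2 probes. PSOLI05002 fell from 1.69, 1.68 and 1.79 to 0.85, 0.90 and 0.80, a difference of -0.87 (SE 0.05, adjusted p = 4.1e-08, limma). The other FALDH probe, PSOLI05210, was steadier, with 0.90, 0.90 and 0.88 at 8 d and 1.07, 1.11 and 1.04 at 12 d. Its rise of 0.18 (adjusted p = 0.025) did not pass with equal array spread (adjusted p = 0.057), with the slope taken out (adjusted p = 0.12) or without any 1 of 5 arrays, all but the third of 12 d. The probes were thus at 1.72 and 0.89 at 8 d and at 0.85 and 1.07 at 12 d.

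The other 5 oxidative stress probes that fell were already below 0 at 8 d. Peroxiredoxin type 2 (PSOLI04083), a thiol peroxidase, went from -0.71, -0.69 and -0.74 to -0.95, -1.03 and -1.07, a difference of -0.30 (SE 0.05, adjusted p = 0.0013, limma). Monodehydroascorbate reductase (PSOLI00933), which regenerates ascorbate, went from a mean of -1.11 to -1.34 (adjusted p = 0.011), and lost its call with the slope taken out and without replicate 2 of either time. Glutaredoxin-S15 (PSOLI01145) was the probe that rose from below 0, from -0.88 to -0.67 (adjusted p = 0.015). Glutathione peroxidase (PSOLI04501) had means of -1.27 and -1.33 (adjusted p = 0.6), and the thioredoxin h (PSOLI04247), a cytosolic disulphide reductase, 1.05 and 1.01 (adjusted p = 0.7). Ferritin-3, an iron store of plastids, was above 0 for both of its probes, with means of 0.83 and 0.91 for PSOLI00243 (adjusted p = 0.46) and of 1.43 and 1.58 for PSOLI03272 (adjusted p = 0.086). The latter had an adjusted p of 0.042 without replicate 2 of 12 d.

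Phosphofructokinase (PSOLI03813), which commits sugar phosphates to glycolysis, had 1.04, 1.07 and 1.02 at 8 d and 0.35, 0.35 and 0.37 at 12 d. The arrays of each time agreed closely, and the fall was -0.69 (SE 0.05, adjusted p = 2.7e-07, limma). Sucrose synthase (PSOLI04390), which splits sucrose for glycolysis and polymer synthesis, fell from 1.58, 1.71 and 1.64 to 1.26, 1.30 and 1.28, by -0.36 (SE 0.06, adjusted p = 0.00042, limma). It stayed above 1. The aquaporin PIP-type 7a (PSOLI04982), a water channel of the plasma membrane, fell from 0.93, 1.10 and 1.05 to 0.62, 0.71 and 0.56, by -0.40 (SE 0.06, adjusted p = 0.00038, limma). The universal stress protein PSOLI04490, the highest of all returning probes at 8 d with 1.98, 2.08 and 2.03, went to 1.58, 1.65 and 1.59. It fell by 0.42 (SE 0.05, adjusted p = 5.7e-05, limma) and remained the most raised probe of the class. The other universal stress protein probe (PSOLI04288) had means of -1.17 and -1.32 (adjusted p = 0.14). A nonspecific lipid-transfer protein (PSOLI00301), of a family that carries lipids to cell surfaces, fell from a mean of 1.04 to 0.65 (SE of the difference 0.05, adjusted p = 7.4e-05).

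Other enzymes of glycolysis moved in different directions. Fructose-bisphosphate aldolase fell by 0.39 for PSOLI04449, to a mean of -1.39 (adjusted p = 0.00045). For the cytoplasmic isozyme PSOLI04974 it rose from 1.30 to 1.58 (adjusted p = 0.0093, with the call lost when the slope was taken out). Glyceraldehyde-3-phosphate dehydrogenase (PSOLI03899) rose from 0.81 to 1.11 (adjusted p = 0.012). For hexokinase (PSOLI01657) the means were 0.95 and 1.00 (adjusted p = 0.64), and for pyruvate kinase (PSOLI04899) 1.00 and 1.01 (adjusted p = 0.91). Alcohol dehydrogenase (PSOLI03230), the last step of ethanol fermentation, had 1.12, 0.71 and 0.92 at 8 d and 1.34, 1.33 and 1.23 at 12 d. The wide 8 d arrays did not reach those of 12 d, and it rose by 0.38 (SE 0.09, adjusted p = 0.0063, limma).

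Several of the strongest returning probes have no product name in the tables used here, or only that of a hypothetical protein. PSOLI05042 went from 1.52, 1.46 and 1.63 to 0.19, 0.34 and 0.25, and PSOLI02456 from 1.61, 1.92 and 1.81 to 0.48, 0.54 and 0.56. Their differences were -1.28 (SE 0.07, adjusted p = 7.7e-09) and -1.25 (SE 0.08, adjusted p = 1.1e-07). At 15 d PSOLI05042 was at 0.33 ± 0.11 and PSOLI02456 at -0.10 ± 0.17 (SD, n = 3). The hypothetical protein PSOLI03419, chosen after its values were seen, had 1.37, 0.99 and 1.42 at 8 d and -0.03, 0.00 and -0.01 at 12 d, the closest return to 0 of a probe with a ratio above 1 at 8 d. Of the 203 probes returned from up, 20 were in the product table, and 9 of these were hypothetical proteins. In the list of 11 protein kinases and phosphatases, 9.09% were called, against 30.1% of the whole product table. By limma 0 rose and 1 fell (2 rose at an unadjusted p under 0.05), with a median difference of 0.01. That probe (PSOLI02408), given as a hypothetical protein in the product table, went from a mean of 1.05 to 0.23 (adjusted p = 2.3e-07).

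Among probes that went further up, the largest change with a product name was that of ycf3 (PSOLI00436), a plastid-encoded factor for photosystem I assembly. It had 0.28, 0.38 and 0.02 at 8 d and 1.16, 1.24 and 1.23 at 12 d, and 1 of the 8 d arrays was near 0. The rise was 0.98 (SE 0.08, adjusted p = 4.1e-07, limma), and the ratio at 15 d was 0.74 ± 0.05 (SD, n = 3). The other ycf3 probe (PSOLI01196) was already at a mean of 1.22 at 8 d and had 1.33 at 12 d, which did not pass the test (adjusted p = 0.17). TIM50 (PSOLI01371), of the mitochondrial inner membrane import complex, rose from 1.30, 1.11 and 1.15 to 1.91, 1.84 and 1.99, by 0.73 (SE 0.06, adjusted p = 1.2e-06, limma). All arrays of both times were above 1. A probe given as an ORF16-LacZ fusion protein (PSOLI00094), the name of a cloning vector product, rose from 0.90, 0.92 and 0.99 to values between 1.47 and 1.59. It changed by 0.58 (SE 0.05, adjusted p = 3.4e-06, limma) and was at 0.93 ± 0.04 at 15 d.

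The chloroplast ribosomal protein S18 (PSOLI00265) went from a mean of 1.39 to 1.82 (SE of the difference 0.05, adjusted p = 4.4e-05) and the photosystem II reaction centre protein I (PSOLI01039) from 1.02 to 1.33 (adjusted p = 0.0006). An SNF2 domain protein (PSOLI02000), of a family that remodels chromatin, rose from 0.79 to 1.18 (adjusted p = 0.00038), and the proliferating cell nuclear antigen (PSOLI02321), the sliding clamp of DNA replication, from 0.72 to 1.06 (adjusted p = 0.00065). These 4 probes, like the lipid-transfer protein, cathepsin H, OPR1 and the enzymes of glycolysis and fermentation other than phosphofructokinase, were chosen after their values were seen. OPR1 (PSOLI04604), an oxophytodienoate reductase, rose from a mean of 1.12 to 1.41 (adjusted p = 0.0032), while 12-oxophytodienoate reductase 2 (PSOLI04233) had means of -1.08 and -1.09 (adjusted p = 0.93).

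The largest rise of all was that of a predicted hypothetical protein (PSOLI01600), from 0.72, 0.62 and 0.64 to 1.90, 1.88 and 1.80. Every 12 d array was more than 1 above every 8 d array, and the difference was 1.20 (SE 0.05, adjusted p = 2.5e-09, limma). Of probes without a product name, PSOLI04025 rose most, from a mean of 0.19 to 0.86 (adjusted p = 5.4e-06). PSOLI04737, from 0.15 to 0.70 (adjusted p = 3.8e-06), and PSOLI04761, which was below 0 at 8 d, followed with equal rises of 0.56. Of the 187 predicted hypothetical proteins, known only from gene-finding programs, 37 rose and 12 fell, with a median difference of 0.05. The share called was 26.2%, against 30.1% of the whole product table. Of the 80 probes further up that are in the product table, 33 were hypothetical proteins, against 4 of 88 further down. Among probes that turned back they were 9 of 20 from above 0 and 4 of 27 from below 0. The classes were divided by the sign at 8 d, where predicted hypothetical proteins had a median of 0.87 and the whole product table -0.71. These counts therefore do not show that hypothetical proteins tended to rise after 8 d.

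Seed storage proteins did not move as a group. Of the 9 legumin, vicilin, convicilin and albumin probes, 2 rose and 1 fell, with a median difference of 0.16. The share called was 33.3%, against 30.1% of the whole product table. Provicilin type B (PSOLI04635) rose from 1.10, 1.19 and 1.16 to 1.63, 1.83 and 1.90, by 0.64 (SE 0.07, adjusted p = 1e-05, limma), and an albumin (PSOLI04531) from a mean of 0.61 to 0.83 (adjusted p = 0.02). The rise of the albumin was lost with the slope taken out and without replicate 2 of either time. Convicilin (PSOLI00637) went from 0.00, -0.11 and -0.11 to -0.31, -0.38 and -0.28. It was the only probe of the product table that was near 0 at 8 d and changed, by -0.25 (SE 0.05, adjusted p = 0.0052, limma), and at 15 d it was at -1.37 ± 0.03 (SD, n = 3).

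All 4 legumin probes were raised at both times, and 0 were called between the times by limma (1 at an unadjusted p under 0.05). Legumin J (PSOLI04998) had means of 1.74 and 1.82 (adjusted p = 0.38), Legumin K (PSOLI04995) 1.42 and 1.58 (adjusted p = 0.37), and Legumin B (PSOLI02001) 1.02 and 0.91 (adjusted p = 0.28). The other Legumin J probe (PSOLI04996) had 0.78, 1.25 and 0.96 at 8 d and 1.69, 0.98 and 1.42 at 12 d. The arrays overlapped widely, and its difference of 0.37 (95% interval 0.07 to 0.66, adjusted p = 0.078, limma) passed the test only without replicate 2 of 8 d (adjusted p = 0.035) or of 12 d (adjusted p = 0.0061). The 2 probes of provicilin type A were below 0, with means of -1.18 and -1.29 for PSOLI02231 (adjusted p = 0.11) and of -1.11 and -0.89 for PSOLI02195 (adjusted p = 0.06). PSOLI02195 passed the test with equal array spread (adjusted p = 0.027), with the slope taken out (adjusted p = 0.024) and without replicate 2 of 8 d (adjusted p = 0.027). Of both oleosin probes, P24 (PSOLI04150) rose from -1.30 to -1.04 (adjusted p = 0.019, lost without replicate 2 or 3 of 12 d or replicate 3 of 8 d), and the 16 kDa form (PSOLI04214) had -1.07 and -0.91 (adjusted p = 0.12, and 0.04 with the slope taken out). In the seed-specific list of 14 probes, which holds most of these, 3 rose and 1 fell, with a median difference of 0.09. The share called was 28.6%, close to the 30.1% of the whole product table. Legumain, described above, was among those that rose. Since each value is a ratio, these markers do not show how much storage protein RNA the seeds held.

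**Figure D3:**
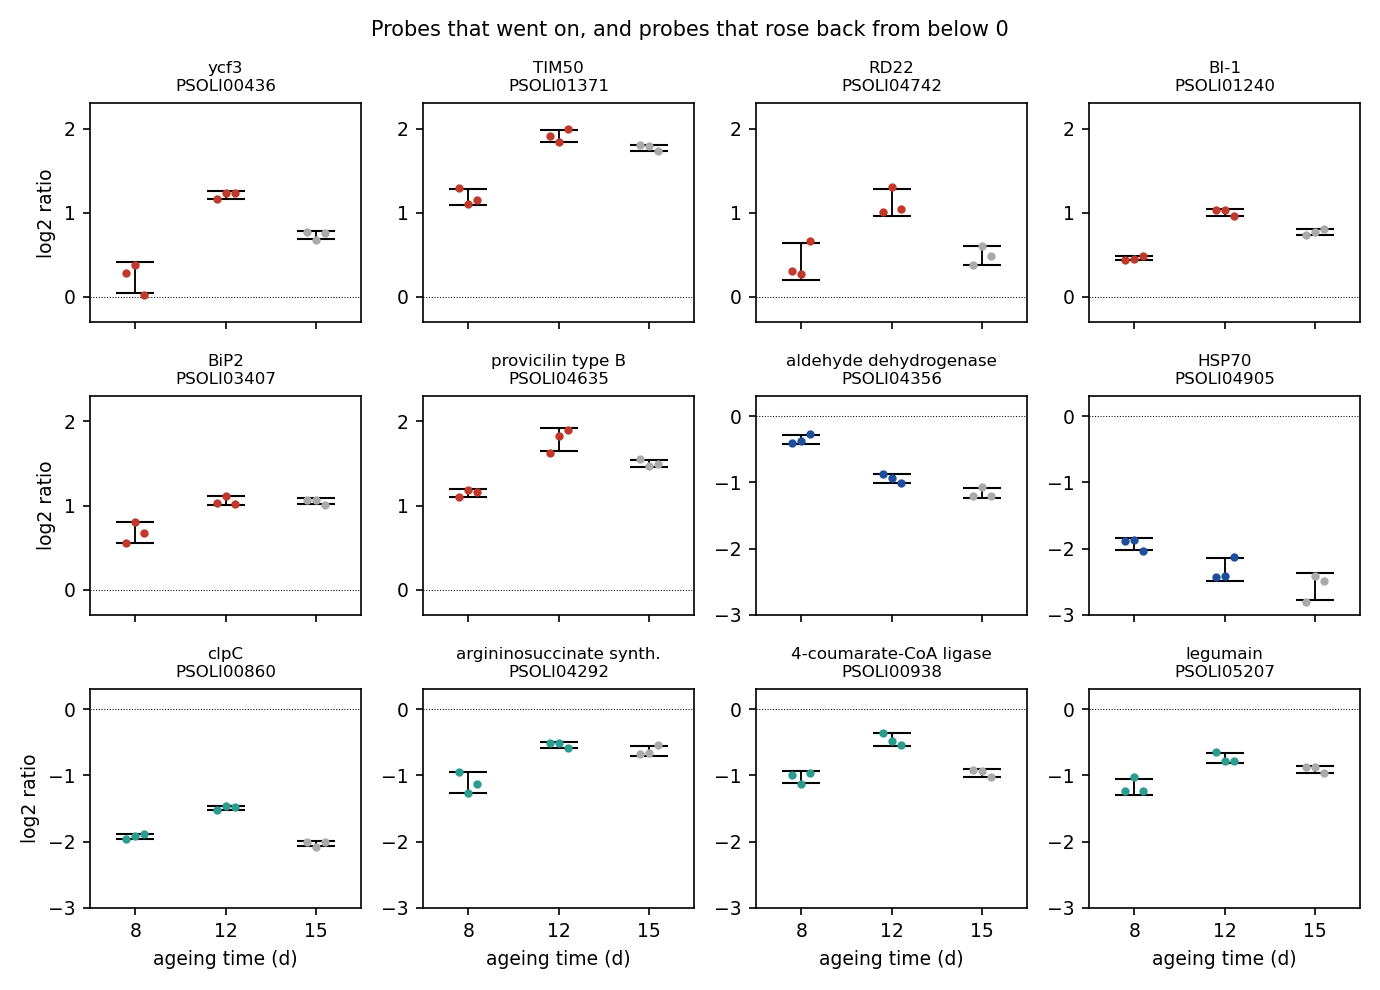
Log2 ratio (aged over non-aged) of 12 probes on each of the 3 arrays at 8, 12 and 15 d, with bars for mean ± SD. The 6 red probes rose further, with ycf3 going from 0.23 to 1.21, the 2 blue ones fell further, and the 4 green ones rose back from below 0 by between 0.43 and 0.57, of which clpC was at -2.03 again at 15 d.

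Molecular chaperones bind unfolded proteins, and most of those on the list were below 0 at both times. Of 15 probes, 5 rose and 2 fell (46.7% called, against 30.1% of the whole product table), with a median difference of 0.05. The 2 that fell were an HSP70 and an HSP90. HSP70 (PSOLI04905) went from -1.89, -1.87 and -2.03 to -2.43, -2.41 and -2.12, by -0.39 (SE 0.10, adjusted p = 0.012, limma), and HSP81-3 (PSOLI00619), a cytosolic HSP90, from -1.59, -1.51 and -1.49 to -1.87, -1.82 and -1.91, by -0.34 (SE 0.05, adjusted p = 0.00065). The arrays of the 2 times were apart for both. The HSP70 call was lost with the slope taken out (adjusted p = 0.071) and without replicate 1 (adjusted p = 0.054) or 2 (adjusted p = 0.055) of 12 d.

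From below 0, 3 chaperones rose. ClpC (PSOLI00860), the ATPase of a plastid protease, went from -1.96, -1.92 and -1.88 to -1.52, -1.46 and -1.48, by 0.43 (SE 0.05, adjusted p = 4.4e-05, limma), and HSP18.1 (PSOLI02041), a small cytosolic heat shock protein, from -0.83, -0.97 and -0.87 to -0.64, -0.62 and -0.63, by 0.26 (SE 0.05, adjusted p = 0.0033). At 15 d these were at -2.03 ± 0.04 and -1.19 ± 0.02 (SD, n = 3), below their values at 8 d. A heat shock protein without further name (PSOLI00955) had means of -2.03 and -1.84 (adjusted p = 0.036), with an adjusted p of 0.024 without replicate 3 of 12 d and between 0.052 and 0.14 without any other array. BiP2 and the zeta subunit of the T-complex (PSOLI03645), part of the chaperonin that folds actin and tubulin, were above 0 and rose further, the latter from 1.15 to 1.46 (adjusted p = 0.0031). The epsilon and eta subunits were below 0, with means of -2.27 and -2.36 for PSOLI00562 and of -0.98 and -1.03 for PSOLI00088 (adjusted p = 0.28 and 0.64). The other 6 chaperone probes also missed the threshold: Hsc70.1 (PSOLI00725) with -1.10 and -1.23, the class II heat shock protein (PSOLI02110) with -1.25 and -1.19, dnaJ 3 (PSOLI01557) with -0.65 and -0.67, cyclophilin D (PSOLI01437) with 0.88 and 0.95, and the 14-3-3 probes PSOLI04215 with -1.20 and -1.23 and PSOLI02763 with 0.71 and 0.79.

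Among probes that went further down, aldehyde dehydrogenase class 1 (PSOLI04356), which oxidises aldehydes to acids, fell most, from -0.41, -0.38 and -0.27 to -0.87, -0.94 and -1.01. The difference was -0.59 (SE 0.06, adjusted p = 1e-05, limma). It was followed by 3-ketoacyl-CoA synthase 10 (PSOLI00935), of very-long-chain fatty acid elongation, from -1.28, -1.40 and -1.21 to -1.71, -1.74 and -1.95, by -0.50 (SE 0.08, adjusted p = 0.00084). Glutamine synthetase (PSOLI00518), which assimilates ammonium, went from -1.25, -1.31 and -1.19 to -1.54, -1.75 and -1.74, by -0.43 (SE 0.06, adjusted p = 0.00038). None of these 3 had overlapping arrays, which the rule for naming them required, and 33.7% of all probes did not overlap. Histone H3 (PSOLI04463), of the nucleosome core, went from -1.03, -1.13 and -1.06 to -1.47, -1.48 and -1.54, by -0.42 (SE 0.06, adjusted p = 0.00012).

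Of 63 ribosomal protein probes, 21 fell, 8 rose and 34 did not pass the test, with a median difference of -0.09 and medians of -0.81 at 8 d and -0.92 at 12 d. All 21 that fell were further down. With 1 array left out, between 11 and 15 fell. With the slope taken out, only 8 fell and 6 rose. In the KOG category of translation, 22 of 79 fell and 7 rose (36.7% called, against the same 30.1%), and 10 fell with the slope taken out. The 40S protein S15a-1 probe PSOLI04201 went from -1.16, -1.13 and -1.27 to -1.63, -1.53 and -1.60, by -0.40 (SE 0.06, adjusted p = 0.0002, limma), and the translation factor eIF5A-5 (PSOLI04630) from -0.45, -0.40 and -0.54 to -0.88, -0.93 and -1.02, by -0.48 (SE 0.06, adjusted p = 7.5e-05). S4-2 (PSOLI04813), L28-1 (PSOLI04318) and L12-3 (PSOLI04985) fell by 0.31, 0.29 and 0.27. Those that rose included L37-2 (PSOLI03397), from a mean of 0.44 to 0.87 (adjusted p = 0.00041), and L29-1 (PSOLI04069), from 0.54 to 0.81 (adjusted p = 0.007). Of the 8, 6 were already above 0 at 8 d.

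Probes with the same product name did not always move together. Of 43 names carried by 2 or more probes, 5 had 2 or more probes called, and in 4 of these the calls went both ways. They were FALDH and the ribosomal proteins S15a-1, L15-2 and L22-2. The S15a-1 probe PSOLI04340 rose from -1.05, -1.19 and -1.15 to a mean of -0.91 (difference 0.22, adjusted p = 0.032), where PSOLI04201 had fallen, although this rise was lost without 1 of 4 arrays. L22-2 fell for PSOLI04765, from a mean of -1.34 to -1.61, and rose for PSOLI04931, from 0.76 to 0.99. L15-2 fell for PSOLI04205, from -1.23 to -1.43, and rose for PSOLI01752, from 0.75 to 1.01. Both rises and the L15-2 fall were lost without 1 of 4 arrays, and all 4 calls were lost with the slope taken out. Probe sequences were not analysed here, so it is not known whether such probes read the same transcript.

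**Figure D4:**
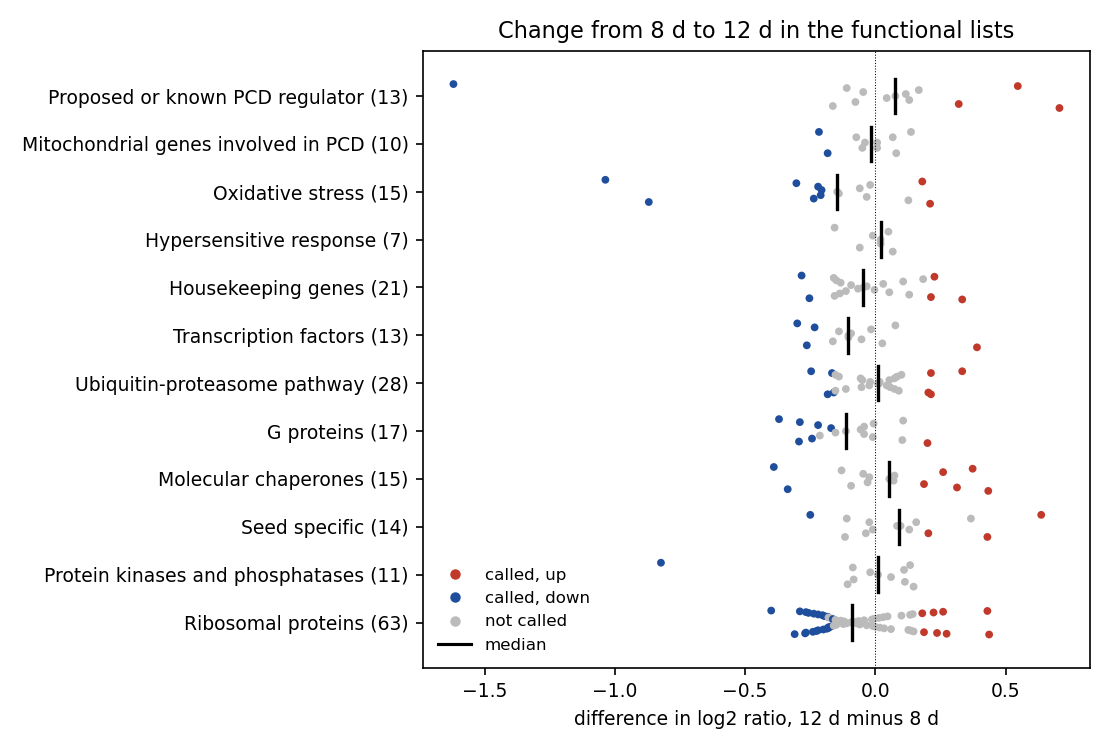
Difference in mean log2 ratio, 12 d minus 8 d, for each probe of 11 functional lists and of the ribosomal proteins, 1 point per probe, with black bars at the list medians. Medians lie between -0.15 (oxidative stress) and 0.09 (seed specific), and the points far to the left are RD21 at -1.62, the peroxidase at -1.04, FALDH at -0.87 and PSOLI02408 of the kinases and phosphatases at -0.82.

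Regulatory and turnover lists moved in both directions by small amounts. Of 17 G protein probes, small GTPases of vesicle traffic and nuclear transport among them, 1 rose and 6 fell. The share called was 41.2%, against 30.1% of the whole product table and 18.5% of all probes. The median difference was -0.11. Ran (PSOLI04314), of nuclear transport, had -0.80, -0.83 and -0.89 at 8 d and -1.16, -1.23 and -1.24 at 12 d (difference -0.37, SE 0.05, adjusted p = 0.00028, limma). Rab11C (PSOLI00276), of vesicle recycling, went from a mean of -0.81 to -1.10 (adjusted p = 0.0066). The probe that rose was Rab GDP dissociation inhibitor (PSOLI00760), which takes Rab proteins off membranes, from -1.80 to -1.60 (adjusted p = 0.023). Without 1 array, between 0 and 1 of the G protein probes rose and between 3 and 6 fell.

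Among 28 probes of the ubiquitin-proteasome pathway, which marks and degrades proteins, 4 rose and 4 fell, with a median difference of 0.01. The share called was 28.6%, close to the 30.1% of the whole product table. Ubiquitin (PSOLI04506) rose from 0.65, 0.66 and 0.67 to 0.96, 1.06 and 0.96 (difference 0.33, adjusted p = 0.00041). The other 3 ubiquitin probes did not pass the test, with differences of 0.05 for PSOLI05050, 0.07 for PSOLI03835 and 0.03 for PSOLI04735 (adjusted p = 0.53, 0.48 and 0.82). The E3 ligase LRSAM1 (PSOLI00708) fell from a mean of -0.88 to -1.13 (adjusted p = 0.0064). Without 1 array, between 1 and 4 rose and between 1 and 3 fell. With the replicate block 2 fell, with equal array spread 1 fell, and with the slope taken out 2 rose and 1 fell. Of 13 transcription factors, 1 rose and 3 fell, with a median difference of -0.10. The share called was 30.8%, close to the same 30.1%. NAC29 (PSOLI00791), of a family known for its part in leaf senescence, went from -0.57, -0.52 and -0.47 to -0.83, -0.86 and -0.77 (difference -0.30, adjusted p = 0.009).

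In the list of 21 housekeeping genes, 3 rose and 2 fell, with a median difference of -0.05. The share called was 23.8%, against 30.1% of the whole product table. Actin-7 (PSOLI04417) rose from -1.82, -1.85 and -1.83 to -1.68, -1.60 and -1.54 (difference 0.23, adjusted p = 0.0084), and an elongation factor 1-alpha (PSOLI01474) fell from -2.16, -2.11 and -2.01 to -2.33, -2.34 and -2.46 (difference -0.28, adjusted p = 0.0034, lost with the slope taken out). Both are often used as reference genes, and both were below -1.5 on all 6 arrays.

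Return from below 0 was smaller than return from above. The class had a largest rise of 0.57, in argininosuccinate synthase (PSOLI04292), of arginine synthesis, from -0.95, -1.26 and -1.13 to -0.52, -0.52 and -0.59 (SE 0.07, adjusted p = 7.1e-05, limma). The 4-coumarate-CoA ligase probe (PSOLI00938), of phenylpropanoid synthesis, went from values between -1.13 and -0.96 to -0.36, -0.49 and -0.55, by 0.56 (SE 0.06, adjusted p = 2.9e-05). It was the 1 probe that left -1 and passed -0.5, and it was at -0.96 ± 0.06 at 15 d. Cytochrome P450 74A (PSOLI00754), the allene oxide synthase of jasmonate synthesis, rose from -1.09, -1.12 and -1.24 to -0.71, -0.80 and -0.78, by 0.39 (SE 0.07, adjusted p = 0.0012). Violaxanthin de-epoxidase (PSOLI00531), of the xanthophyll cycle, had -1.29, -1.42 and -1.67 at 8 d and -0.74, -1.19 and -1.14 at 12 d. The spread at both times was wide, and its rise of 0.44 (SE 0.11, adjusted p = 0.015) was lost without replicate 1 of 12 d (adjusted p = 0.066) or replicate 3 of 8 d (adjusted p = 0.068).

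At 15 d, whose arrays entered the division only through the estimate of the spread, the classes lay as follows. Probes further up had medians of 0.48, 0.77 and 0.79 at the 3 times in order, and those further down -0.54, -0.79 and -0.91. Probes returned from up had 0.42, 0.07 and 0.10. For those returned from down the medians were -0.36, -0.08 and -0.23. Since the classes were chosen for their 12 d values, the step from 12 d to 15 d was not tested.

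**Figure D5:**
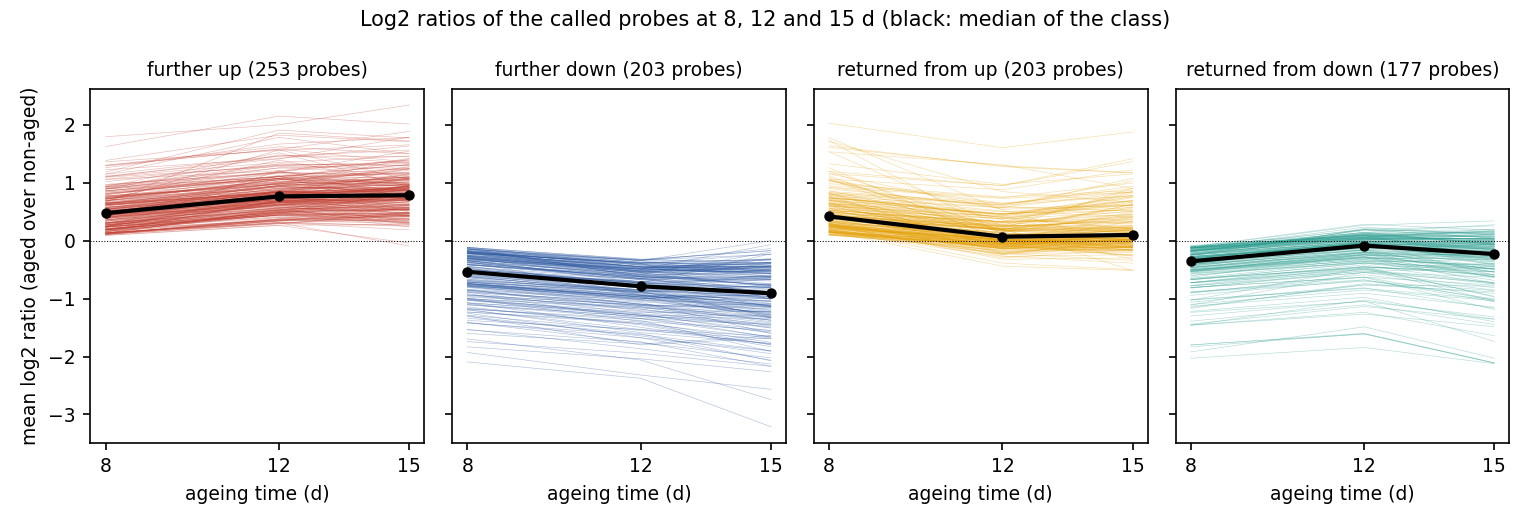
Mean log2 ratio (aged over non-aged) at 8, 12 and 15 d of every probe in 4 classes, 1 thin line per probe, with the class median in black. Medians of probes returned from up stayed near 0 at 15 d (0.10), while those returned from down went from -0.08 at 12 d to -0.23 at 15 d.

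Probes that passed through 0 or left it mostly have no product name here, since the product table was limited to probes far from 0 at some time. In all 53 that passed from one side to the other, the 3 arrays of 8 d were on the opposite side of 0 from the 3 of 12 d. This class was cut from these same values, so that the separation is a description and not a test. PSOLI03125 went from 0.65, 0.83 and 0.85 to -0.09, -0.11 and -0.23, and PSOLI04896 from 0.84, 0.83 and 0.59 to -0.16, -0.21 and -0.01. In the other direction, PSOLI04761 rose most, from -0.30, -0.38 and -0.35 to 0.28, 0.18 and 0.18. From near 0, PSOLI00452 rose most, from 0.11, -0.01 and 0.14 to 0.64, 0.49 and 0.50. These 4 probes were chosen after their values were seen, by size within their class. Of 26 probes with names in PCPS, whose nature is not given in the sources used here, 7 changed, where 18.5% of all probes did. This count was not tested.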

How the data were processed

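The authors deposited 1 log2 ratio per probe and array (aged seeds over controls), made by subtracting background, fitting a loess curve within each print tip and scaling the arrays. The median absolute deviation was 0.3855 on every 8 d array and 0.4003 on every 12 d array. The deposited scale was thus shared within each of these times but not between them. The direction was that of the study's product table, whose signs were the same for 717 of 717 probes at 8 d and at 12 d, and whose ratios were not used otherwise. Array medians were 0.01 or 0.02, and intensities were not analysed here, so that the precision rests on 3 arrays per time. A fit with 1 mean per ageing time over all 9 arrays was made in limma 3.58.1 (R 4.3.3), with 6 residual degrees of freedom and a prior of 9.165. Tests were two-sided, and p-values were adjusted over all 5246 probes. On simulated data with 200 changed probes of 5246, the contrast of 12 d and 8 d recovered 65.5% of shifts of 0.25 and 100% of shifts of 0.5. False calls numbered 9 and 12 in these 2 runs. Fewer probes were changed there than the 18.5% called in the data, so recovery in the data may differ. Summaries were made in Python 3.11.15. No source says that replicates came from separate seed lots, so p-values measure the spread between pooled samples.

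Members and lists were chosen with earlier results of these data known. Named were the 6 largest changes with non-overlapping arrays and a product name in each class that went on or returned, up to 3 from near 0, the 2 largest rises and falls without a product name, storage proteins, chaperones and genes the study discusses, and further members of lists by size of change. Lists were the 11 lists of the functional table, ribosomal, storage and hypothetical proteins, oleosins and the KOG category of translation; none was tested for enrichment. Accession numbers (549) were set against the reference annotation, 0 matched, and no genome positions or sequences are given.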

Additional observations from a re-analysis of the deposited data

Results flagged for a closer look

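The ratio differed between 8 d and 12 d for 972 probes by the limma contrast, which was the comparison itself. Among these, 12 probes lay on opposite sides of 0 on all 3 arrays of both times and changed by at least 0.5. They were picked from these same values. The differences were -0.92 for PSOLI03125, -0.88 for PSOLI04896, -0.77 for PSOLI03816, -0.70 for PSOLI05087, -0.69 for PSOLI04400, -0.66 for PSOLI00685, -0.60 for PSOLI01278, -0.59 for PSOLI02258, -0.58 for PSOLI00912, -0.57 for PSOLI03119 and -0.55 for PSOLI04177. PSOLI04761, with 0.56, was the only one of the 12 to rise. None of the 12 had a product name in the tables used here.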

How the results depend on the processing

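The 972 calls became 445 at an adjusted p under 0.01 (224 up, 221 down), with 128 further up, 88 further down, 120 returned from up, 64 returned from down and 45 from near 0. With an adjusted p under 0.10, 220 probes came from near 0. A change of at least 0.5 left 60 (23 up, 37 down), namely 20 further up, 2 further down, 35 returned from up and 3 returned from down, among them 11 that crossed 0 downwards and 1 upwards, and 0 from near 0. When a ratio of at least 0.5 in size, in place of the test, defined a change at 8 d, 118 probes went further up, 108 further down, 84 returned from up and 63 from down, 4 crossed 0 downwards and 0 upwards, and 599 came from near 0. With the slope taken out, 118 went further down. Without 1 array, between 659 and 718 probes were called (342 to 377 up, 317 to 347 down), with 171 to 194 further up, 124 to 149 further down, 145 to 169 returned from up, 112 to 127 returned from down and 87 to 111 from near 0, and 24 to 30 crossed 0 downwards and 15 to 20 upwards. Fewer arrays were then fitted. The replicate block gave 957 calls, 907 of them shared with the 972. Same-numbered arrays of different times had residual correlations between -0.012 and 0.056, and arrays of different number between -0.067 and 0.038. Residuals about means of 3 arrays cannot settle whether same-numbered samples were handled together. Of the 58 probes named by class, as storage proteins or chaperones or from the study's text, 33 of the 37 called stayed called in all 12 refits, and none of the 37 changed sign. Many of the 37 were chosen as the largest called changes on these same arrays, so this tally does not describe calls in general. Of all 972 calls, between 615 and 664 were kept without 1 array. Further list members and probes chosen after their values were seen are not in this tally, and several of them lost their calls, as given in the report. The smallest difference called was 0.15 in size, and 507 of the 972 calls were under 0.25. In the simulation, 65.5% of shifts of 0.25 were recovered.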
